A study of Mus musculus with 6 samples.

Results

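The dual-specificity MAP kinase phosphatases are 10 genes, Dusp1, Dusp2, Dusp4, Dusp5, Dusp6, Dusp7, Dusp8, Dusp9, Dusp10 and Dusp16, out of 18193 genes with a probe set of a single symbol on Affymetrix mouse 430 2.0 arrays. They were chosen as members of this enzyme family, and the family was picked with earlier results of the same comparisons known, so their differences between the groups are given as a description and nothing is inferred from their direction. They carried 18 probe sets, of which 16, covering all 10 genes, reached the signal filter.

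Total RNA came from dermal fibroblasts at passage 4, grown from explants of mouse skin 0 to 2 days after birth. The mothers were BL6 and the fathers, of a mixed 129/ICR background, had an X-linked GFP transgene under the chicken β-actin promoter and a CMV enhancer. Every culture was first sorted for cells without GFP. GFP-positive and GFP-negative cells received the DNA methylation inhibitor 5-aza-2'-deoxycytidine (4 μM) for 48 hours, recovered for 24 hours and were sorted a further time by GFP. Control cells were untreated over the same times and not sorted again, so the drug and the later sort cannot be told apart. Each of the 3 groups has 2 arrays, called biological replicates 1 and 2 in the labels, which do not say whether they came from separate animals or litters. The labels describe every culture as from heterozygous females, but in the field for sex they give control replicate 2 as mixed and all others as female.

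MAP kinases such as ERK, JNK and p38 are switched on by phosphorylation of a threonine and a tyrosine, and these phosphatases remove both phosphates and so switch the kinases off. Many of their genes are themselves transcribed in response to MAP kinase activity, which makes the proteins a negative feedback on the pathway. In fibroblasts, serum and growth factors are classical inducers of Dusp1, Dusp5 and Dusp6.

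Promoter sequence is shown for members whose signal was higher in both treated groups, because the drug inhibits the methylation of cytosines in CpG dinucleotides. No methylation values were analysed here. RefSeq promoter windows on build GRCm38.p6, from 250 bases before to 50 after the start of transcription, were matched for 8 of the 10 genes by symbol, and for Dusp4 and Dusp9 none is shown. The 250 bases before the start are printed 5′ to 3′ with each CpG in capitals, for Dusp1 (chr17:26508473-26508722, minus strand), Dusp2 (chr2:127335909-127336158, plus strand), Dusp5 (chr19:53528895-53529144, plus strand), Dusp6 (chr10:99262981-99263230, plus strand) and Dusp10 (chr1:184034131-184034380, plus strand).
Dusp1: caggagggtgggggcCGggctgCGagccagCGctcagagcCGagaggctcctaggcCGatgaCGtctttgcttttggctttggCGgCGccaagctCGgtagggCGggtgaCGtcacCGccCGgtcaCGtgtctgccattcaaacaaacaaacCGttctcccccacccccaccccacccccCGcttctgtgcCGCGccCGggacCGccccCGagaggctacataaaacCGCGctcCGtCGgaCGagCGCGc
Dusp2: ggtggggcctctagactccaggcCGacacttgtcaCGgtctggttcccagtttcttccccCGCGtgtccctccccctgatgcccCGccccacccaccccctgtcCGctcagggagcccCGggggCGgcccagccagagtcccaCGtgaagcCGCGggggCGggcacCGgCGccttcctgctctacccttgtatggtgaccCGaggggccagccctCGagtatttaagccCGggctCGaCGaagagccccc
Dusp5: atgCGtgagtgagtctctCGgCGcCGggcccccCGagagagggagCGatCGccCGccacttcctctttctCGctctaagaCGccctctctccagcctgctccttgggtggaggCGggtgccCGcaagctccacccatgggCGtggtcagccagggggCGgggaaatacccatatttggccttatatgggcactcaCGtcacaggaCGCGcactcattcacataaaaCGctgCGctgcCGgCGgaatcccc
Dusp6: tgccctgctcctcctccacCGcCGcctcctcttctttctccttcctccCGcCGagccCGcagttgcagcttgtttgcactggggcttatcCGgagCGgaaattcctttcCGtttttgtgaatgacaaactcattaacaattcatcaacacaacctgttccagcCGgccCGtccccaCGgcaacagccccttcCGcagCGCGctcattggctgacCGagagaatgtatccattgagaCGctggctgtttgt
Dusp10: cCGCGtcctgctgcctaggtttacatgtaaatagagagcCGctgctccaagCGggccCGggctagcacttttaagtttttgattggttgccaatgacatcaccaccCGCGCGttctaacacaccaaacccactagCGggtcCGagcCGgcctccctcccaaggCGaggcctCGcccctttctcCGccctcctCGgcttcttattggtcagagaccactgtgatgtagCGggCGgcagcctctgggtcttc
These stretches hold 28 CpG in Dusp1, 19 in Dusp2, 21 in Dusp5, 16 in Dusp6 and 17 in Dusp10. Over the whole 300-base windows the 8 matched members had between 19 (Dusp6) and 41 (Dusp7) CpG, against a median of 7 over 32841 windows of 27018 genes. All 8 lay above that median, and Dusp6 had more CpG than 71.9% of all windows while Dusp7 had more than 96.5%. Of the members with a window, those whose signal stood higher in both treated groups had 31 (Dusp1), 26 (Dusp2), 28 (Dusp5), 19 (Dusp6) and 24 (Dusp10) CpG, and those whose groups overlapped had 28 (Dusp16), 34 (Dusp8) and 41 (Dusp7). The highest counts were those of overlapping members, and the ranges meet between 28 and 31. The windows of Dusp7, Dusp8 and Dusp16 belong to a start site inside the annotated gene. Those of Dusp1, Dusp2, Dusp5, Dusp6 and Dusp10 belong to the outer end of the gene, so the counts compare unlike start sites.

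**Figure D1:**
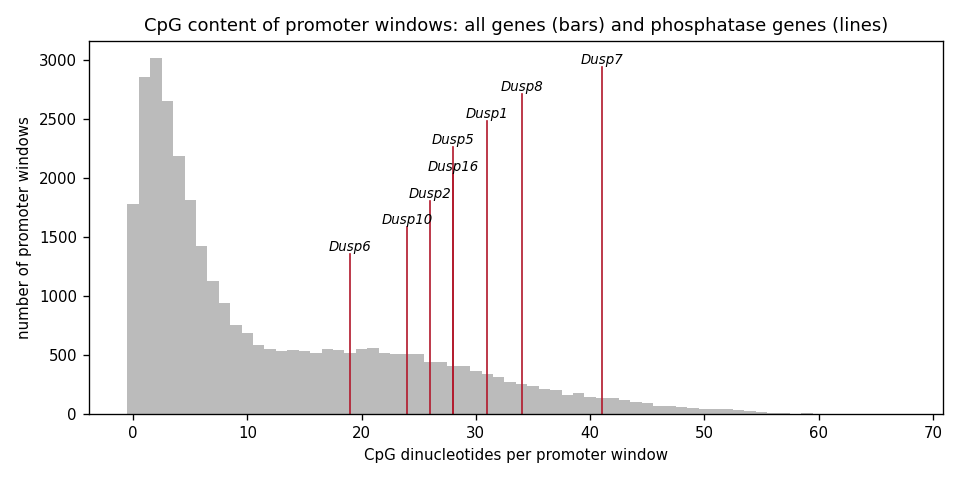
Number of CpG dinucleotides in 300-base promoter windows. Grey bars count the windows of all genes and red lines mark the 8 phosphatase genes with a window, whose line heights only separate the names. The members lie between 19 and 41 CpG, all right of the median of 7.

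Of 3 motifs searched on both strands, the cyclic AMP response element TGACGTCA stood 143 bases before the start of Dusp1 and 107 and 63 bases before that of Dusp8, and 1.79% of all windows hold it. For Dusp8 the start meant is the one inside its annotated gene. The CArG box, the binding sequence of serum response factor, stood at 82 and 72 bases before the start of Dusp5, as CCATATTTGG and CCTTATATGG, and 1.63% of all windows hold it. The AP-1 motif TGANTCA, in 7.81% of all windows, had no match in the 8 windows. These motifs do not overlap each other there, and a match is only a run of letters.

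Signals are in MAS5 units after scaling, which set the 2% trimmed mean of every array to 500. Differences are log2 values of signal plus an offset of 30.6 with the standard error (SE) of a limma fit over all 6 arrays, so that differences of dim probe sets come out too small. The number of arrays limits their precision. Each gene is given at its brightest probe set. Array sets 1 and 2 differed in every group: the scaled signal had a lower quartile of 38.7 to 42.5 in set 1 and of 19.2 to 22.6 in set 2. The deposited values of GFP-positive replicate 2 and GFP-negative replicate 2 needed scale factors of 9.90 and 8.06. For this reason differences are also given within each replicate number. All 13 fibroblast markers examined reached the filter level in every group, but 11 of them had a fitted difference from control below 0 in each treated group, with a median of -0.76 in GFP-positive and -0.34 in GFP-negative cells. Limma called 0 of the 13 in either treated group at an adjusted p of 0.05, where 0.122% and 0.0296% of all probe sets were called. At an unadjusted p under 0.05 stood 6 in GFP-positive and 4 in GFP-negative cells, against 7.04% and 5.07% of all. Dcn, the matrix proteoglycan decorin, had a signal of 1496 and 203 in GFP-positive, 2720 and 334 in GFP-negative and 12516 and 2957 in control cells. Lum, the proteoglycan lumican, had 291 and 93.0 in GFP-positive, 274 and 51.6 in GFP-negative and 2320 and 934 in control cells, while Vim and Fn1 overlapped between treated and control cells. The summed signal of the list was 186323 and 187872 in GFP-positive, 200578 and 187529 in GFP-negative and 236812 and 242162 in control cells. Of 5 skeletal muscle markers 4 reached the filter, and the sum of the list was 13056 and 13137 in GFP-positive, 13176 and 16657 in GFP-negative and 4372 and 9464 in control cells. Almost all of it was Acta1, the skeletal muscle actin. Des, the intermediate filament protein desmin, was also higher without overlap, at 224 and 391 in GFP-positive, 536 and 314 in GFP-negative and 44.6 and 69.1 in control cells. The control mean of Des lay below the filter level, so it passed through the treated arrays. The groups of Ckm overlapped. The defining regulator Myod1 stood between 14.5 and 141.1 with overlapping groups. Of 6 leukocyte markers 3 reached the filter, and the sums of the list were 1166 and 1248, 1362 and 1080, and 949 and 778 in the same order of groups. The sums of the endothelial list were 481 and 245 in GFP-positive, 520 and 332 in GFP-negative and 534 and 610 in control cells, and those of the keratinocyte, melanocyte and Schwann cell lists overlapped between each treated group and control. The keratinocyte sums were higher in GFP-positive cells (769 and 614) than in GFP-negative cells (545 and 575). The markers Myog, Ptprc, Pecam1 and Krt14 did not reach the filter. The part of these shifts in the results on the phosphatases was not tested, and fewer cells of a type and less RNA per cell cannot be told apart.

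**Figure D2:**
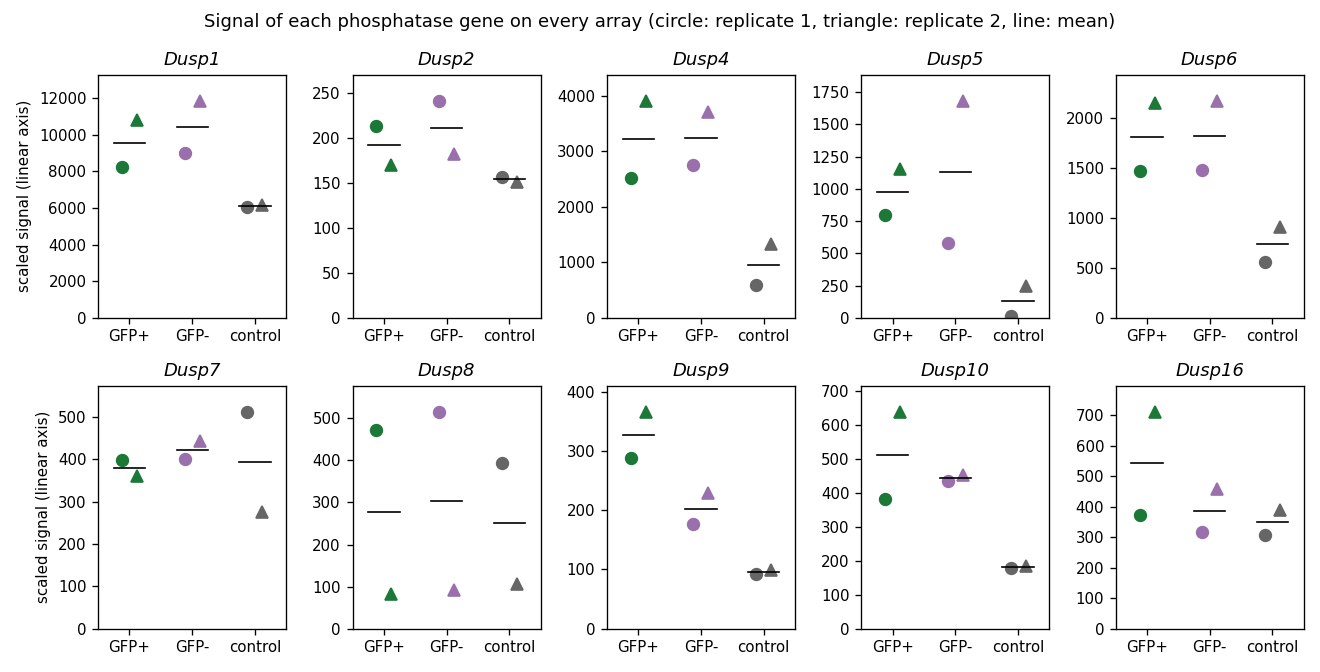
Scaled signal (linear axis from 0) of the 10 phosphatase genes at their brightest probe set on each array, by group. Circles are replicate 1, triangles replicate 2 and lines the mean of 2 arrays. Dusp1, Dusp2, Dusp4, Dusp5, Dusp6, Dusp9 and Dusp10 lie higher on all treated arrays than on both control arrays, and Dusp7, Dusp8 and Dusp16 overlap.

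The nuclear, growth factor-inducible members included the widest differences of the family. Dusp5, a nuclear phosphatase specific for ERK, had a signal of 797 and 1155 in GFP-positive, 582 and 1683 in GFP-negative and 14.5 and 249 in control cells. All 4 treated arrays were above both control arrays, and control replicate 1 was far below control replicate 2. The difference from control was 3.14 ± 0.82 in GFP-positive cells (4.20 within replicate 1, 2.08 within replicate 2). In GFP-negative cells it was 3.19 ± 0.82, with 3.76 and 2.62. The size depended on the dim array: without control replicate 1 the differences were 1.83 in GFP-positive and 1.87 in GFP-negative cells.

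Dusp4, a nuclear phosphatase of ERK and JNK, had a signal of 2519 and 3911 in GFP-positive, 2751 and 3714 in GFP-negative and 581 and 1328 in control cells. Treated arrays lay above control arrays without overlap. The difference was 1.80 ± 0.40 in GFP-positive (2.06 and 1.54 within the replicate numbers) and 1.82 ± 0.40 in GFP-negative cells (2.18 and 1.46). Dusp1, the founding member, which acts on p38 and JNK as well as ERK, had 8255 and 10823 in GFP-positive, 8982 and 11859 in GFP-negative and 6031 and 6167 in control cells. The control arrays lay close together and below all treated arrays, but the differences of 0.63 ± 0.24 (0.45 and 0.81) in GFP-positive and 0.76 ± 0.24 (0.57 and 0.94) in GFP-negative cells were smaller than those of Dusp4 and Dusp5. Dusp2, a nuclear phosphatase best known from activated lymphocytes, had 213 and 170.2, 241 and 181, and 157 and 150.5 in GFP-positive, GFP-negative and control cells. Its differences of 0.26 ± 0.37 in GFP-positive and 0.38 ± 0.37 in GFP-negative cells were no larger than about their SE, although the groups did not overlap. Its GFP-positive value was 0.12 when the first GFP-positive array was left out and 0.40 when the other was, and its GFP-negative value was 0.20 in the absence of GFP-negative replicate 1.

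The cytoplasmic, ERK-directed members were Dusp6, Dusp7 and Dusp9. Dusp6, the ERK-specific feedback phosphatase of growth factor signalling, had a signal of 1473 and 2153 in GFP-positive, 1477 and 2173 in GFP-negative and 558 and 914 in control cells. The treated groups had nearly equal signals within each replicate number and both lay above control. The difference was 1.28 ± 0.33 (1.35 and 1.21) in GFP-positive and 1.29 ± 0.33 (1.36 and 1.22) in GFP-negative cells. Dusp7, its close relative, had 399.7 and 361 in GFP-positive, 402 and 444 in GFP-negative and 513 and 275 in control cells. The groups overlapped and the differences had opposite signs within the replicate numbers, at -0.34 and 0.36 in GFP-positive and -0.33 and 0.64 in GFP-negative cells. Both other Dusp7 probe sets also had opposite signs within the replicate numbers in each treated group.

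Dusp9, which acts on ERK and p38 and is known in the mouse for its need in the placenta, lies on the X chromosome. Its brightest probe set (1433845_x_at) had 289 and 367 in GFP-positive, 176 and 229 in GFP-negative and 92.5 and 99.8 in control cells. Here the order was GFP-positive over GFP-negative over control with no overlap between neighbours. The difference from control was 1.49 ± 0.37 (1.38 and 1.61) in GFP-positive and 0.87 ± 0.37 (0.75 and 0.99) in GFP-negative cells, where it was 0.57 with 4 times the offset. The suffix of this probe set marks possible cross-hybridisation to similar transcripts. The probe set 1454737_at had 245 and 409, 228 and 227, and 84.6 and 50.5 in the same order of groups, with differences of 1.85 ± 0.42 and 1.42 ± 0.42, but its control mean alone was below the filter level of 67.7, so it passed through the treated arrays. The probe set 1433844_a_at had 216 and 399.8 in GFP-positive, 56.4 and 206 in GFP-negative and 42.9 and 195 in control cells. On it GFP-negative and control cells overlapped, with a difference of 0.16 ± 0.70.

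The members directed at JNK and p38 were Dusp8, Dusp10 and Dusp16. Dusp10, a phosphatase of JNK and p38 with a part in immune responses, had 382 and 640.2 in GFP-positive, 436 and 454 in GFP-negative and 179 and 186 in control cells. Treated arrays were above control without overlap, with differences of 1.31 ± 0.33 (0.98 and 1.63) in GFP-positive and 1.16 ± 0.33 (1.16 in each replicate number) in GFP-negative cells. Its dimmer probe set 1417163_at, whose control mean was below the filter level, overlapped between GFP-positive and control cells, with 124 and 19.8 against 39.7 and 16.7. In GFP-negative cells that probe set was higher than control without overlap, with 129 and 88.7 and a difference of 1.26 ± 0.78. Dusp16, a phosphatase of JNK that shuttles between nucleus and cytoplasm, had 374 and 711 in GFP-positive, 317 and 457 in GFP-negative and 308 and 388 in control cells. Its groups overlapped. The difference was 0.54 ± 0.37 in GFP-positive cells, or 0.10 when GFP-positive replicate 2 was left out and 0.98 when replicate 1 was, and 0.13 ± 0.37 in GFP-negative cells. Its other probe set stood between 3.80 and 13.6 on all arrays and was not tested.

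Dusp8, a phosphatase of JNK and p38, followed the replicate number rather than the group on its brightest probe set, but not on 1428864_at. Its brightest probe set had 471 and 81.1 in GFP-positive, 516 and 92.7 in GFP-negative and 394 and 106.5 in control cells. The replicate 1 array was the higher one in every group, and the differences from control of -0.03 ± 0.94 and 0.11 ± 0.94 were far inside their SE. Its probe set 1428864_at was lower in GFP-positive cells than in control cells without overlap, with 58.6 and 100.9 against 103 and 212.5 and a difference of -0.73 ± 0.53, and the GFP-negative arrays overlapped both. Its dimmest probe set did not reach the filter.

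**Figure D3:**
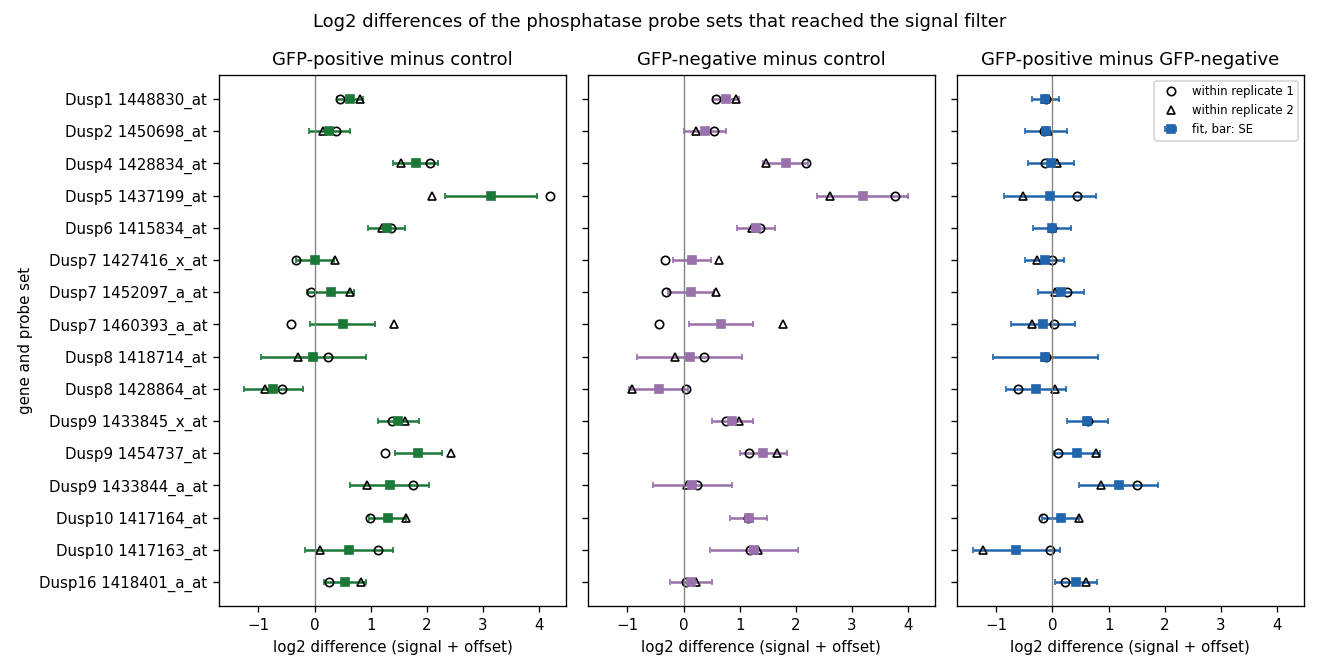
Log2 differences of the 16 phosphatase probe sets that reached the filter. Squares with bars are the fitted difference and its SE, circles and triangles the differences within replicate 1 and replicate 2. In both comparisons with control all points of Dusp1, Dusp2, Dusp4, Dusp5, Dusp6, Dusp9, Dusp10 and Dusp16 lie right of 0, while Dusp7 and Dusp8 have points on both sides. The fitted differences of Dusp4, Dusp5 and Dusp6 between the sorted treated fractions are near 0.

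In GFP-positive against control cells 0 of the 16 phosphatase probe sets were called by limma at an adjusted p of 0.05, where 33 of 27022 probe sets (0.122%) did. At an unadjusted p under 0.05 stood 7 of the 16, of Dusp1, Dusp4, Dusp5, Dusp6, Dusp9 and Dusp10, against 7.04% of all. Over 2-fold higher within both replicate numbers were 5, of Dusp4, Dusp5, Dusp6 and Dusp9, against 1.61%, and 9 were higher with no overlap of the groups, against 17.3%. With the replicate number as a block 8 were called, those of Dusp1, Dusp4, Dusp5, Dusp6, Dusp10 and all 3 of Dusp9, against 6.21%. In GFP-negative against control cells the counts were 0 (0.0296% of all), 7 at an unadjusted p (5.07%), 6 over 2-fold (1.39%), 9 without overlap (15.1%) and 5 with the block (3.57%), the last on Dusp1, Dusp4, Dusp5, Dusp6 and Dusp10. The counts at an unadjusted p, over 2-fold and without overlap include probe sets that passed the filter through the treated arrays. These are 1454737_at of Dusp9 in both comparisons and, over 2-fold and without overlap only, 1417163_at of Dusp10 in GFP-negative cells. The GFP-positive count with the block also includes 1454737_at. Both comparisons use the same control arrays, and since the family was picked from these comparisons nothing is read from the counts. The median difference of the 10 genes was 0.96 in GFP-positive cells (0.71 in array set 1 and 1.02 in array set 2), beside 0.04 over 13223 genes. In GFP-negative cells it was 0.81 (0.66 and 0.97), beside 0.04.

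Setting GFP-positive against GFP-negative cells addressed whether the phosphatases differed between treated cells that had and had not reactivated the transgene. The differences of Dusp4, Dusp5 and Dusp6 were -0.03 ± 0.40, -0.05 ± 0.82 and -0.01 ± 0.33, all much smaller than their SE. Those of Dusp1, Dusp2 and Dusp10 were -0.13 ± 0.24, -0.12 ± 0.37 and 0.15 ± 0.33. Dusp7 stood at -0.14 ± 0.34, lower without overlap at its brightest probe set only, and Dusp8 at -0.13 ± 0.94. Dusp16 stood at 0.41 ± 0.37 (0.22 and 0.61 within the replicate numbers), a little more than its SE, with overlapping groups. These errors do not show equality: a difference of the size of the SE would not be seen. Dusp9 alone among the members had GFP-positive arrays above GFP-negative arrays at its brightest probe set, by 0.62 ± 0.37 (0.63 and 0.62 within the replicate numbers). Its other probe sets were higher too, by 0.43 ± 0.42 (0.09 and 0.77) and 1.18 ± 0.70 (1.50 and 0.86), and on the first of them GFP-positive replicate 1 stood only just above the GFP-negative arrays. The 3 probe sets of Dusp9 thus made up all 3 of the 16 that were higher without overlap, against 10.6% of all probe sets, and 0 of the 16 were over 2-fold higher within both replicate numbers, against 0.233%. Limma called 0 of the 27022 probe sets at an adjusted p of 0.05, with or without the block, and at an unadjusted p under 0.05 stood 0 of the 16, against 0.625%. The 443 X-linked genes tested had a median difference of 0.0017 between the sorted fractions, and 9.48% of them were higher without overlap, beside 10.5% of all 13223 genes.

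The rest of the pathway was counted on lists of known genes, at the brightest probe set of each. Of 28 measured members of a list of 30 ERK target and feedback genes, 2 rose in GFP-positive cells and 1 in GFP-negative cells at an adjusted p of 0.05, where 0.122% and 0.0296% of all probe sets were called, and none fell. At an unadjusted p under 0.05, in either direction, stood 15 of the 28 in GFP-positive and 14 in GFP-negative cells, against 7.04% and 5.07% of all probe sets. Fitted differences were above 0 for 20 of the 28 in GFP-positive and 23 in GFP-negative cells. Spry1 was lower than control without overlap, at -1.43 ± 0.41 in GFP-positive and -0.89 ± 0.41 in GFP-negative cells. So was Jund, at -0.48 ± 0.21 and -0.19 ± 0.21, and in GFP-positive cells only Spry2 (-0.79 ± 0.40), Spred2 and Egr3. The list was chosen with results of these data known, and both comparisons share their controls. The list's median difference was 0.91 in GFP-positive (0.67 and 1.08 within the replicate numbers) and 0.73 in GFP-negative cells (0.68 and 0.82), beside 0.04 for all genes. Phlda1, a pleckstrin homology-like domain protein induced by growth factors, had 5042 and 4097 in GFP-positive, 4757 and 4386 in GFP-negative and 849.7 and 982 in control cells. It rose by 2.28 ± 0.22 in each treated group (adjusted p = 0.0219 in GFP-positive and 0.0386 in GFP-negative cells). These calls depended on the setting: Phlda1 was called in 11 of 18 alternatives in GFP-positive cells (adjusted p of 1.45e-05 to 0.293) and in 5 of 18 in GFP-negative cells (2.81e-05 to 0.582), and in neither without a trend or when any control or GFP-positive array was left out. Fosl1, the AP-1 subunit Fra-1, had 1532 and 1952, 1491 and 1565, and 304 and 444 in the same order of groups, and rose by 2.14 ± 0.27 in GFP-positive cells (adjusted p = 0.0456, with a call in 4 of the 18 alternatives, none of which leaves out a single array, and a range of 5.31e-05 to 0.357), while its difference in GFP-negative cells was 1.97 ± 0.27 (adjusted p = 0.0993). The differences of Ereg, a ligand of the EGF receptor, were 1.86 ± 0.27 and 2.09 ± 0.27 (adjusted p = 0.0763 and 0.0913), and those of the AP-1 subunit Jun 1.36 ± 0.23 and 1.07 ± 0.23 (adjusted p = 0.115 and 0.356).

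Of 37 listed kinases and other components of the MAP kinase cascades 27 reached the filter, of which limma called 0 in either treated group (3 in GFP-positive and 1 in GFP-negative cells at an unadjusted p under 0.05, against 7.04% and 5.07% of all probe sets). Of the 27, 14 were above 0 in GFP-positive and 15 in GFP-negative cells, with medians of 0.04 and 0.08. Map2k6, an activator of p38, had 256 and 215 in GFP-positive, 154 and 178 in GFP-negative and 29.2 and 87.0 in control cells (1.66 ± 0.48 and 1.23 ± 0.48). Its control mean lay below the filter level, so it passed through the treated arrays. Mapk7, the kinase ERK5, had 91.8 and 105 in GFP-positive, 159 and 240.2 in GFP-negative and 402 and 281 in control cells, with differences of -1.51 ± 0.39 and -0.70 ± 0.39. Of 13 atypical dual-specificity phosphatases, which lack the kinase-binding domain of the family described here, limma called 0 (2 and 1 at an unadjusted p under 0.05, against the same shares of all), with medians of 0.09 and 0.18. Dusp14 among them had 1326 and 2695 in GFP-positive, 1164 and 2184 in GFP-negative and 418 and 907 in control cells (1.57 ± 0.48 and 1.33 ± 0.48). Of 6 other phosphatases that act on MAP kinases limma called 0 (0 and 0 at an unadjusted p under 0.05), with medians of 0.19 and 0.14. Ppm1d, a phosphatase of p38 and a target of p53, was at 0.66 ± 0.30 in GFP-positive and 0.39 ± 0.30 in GFP-negative cells.

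**Figure D4:**
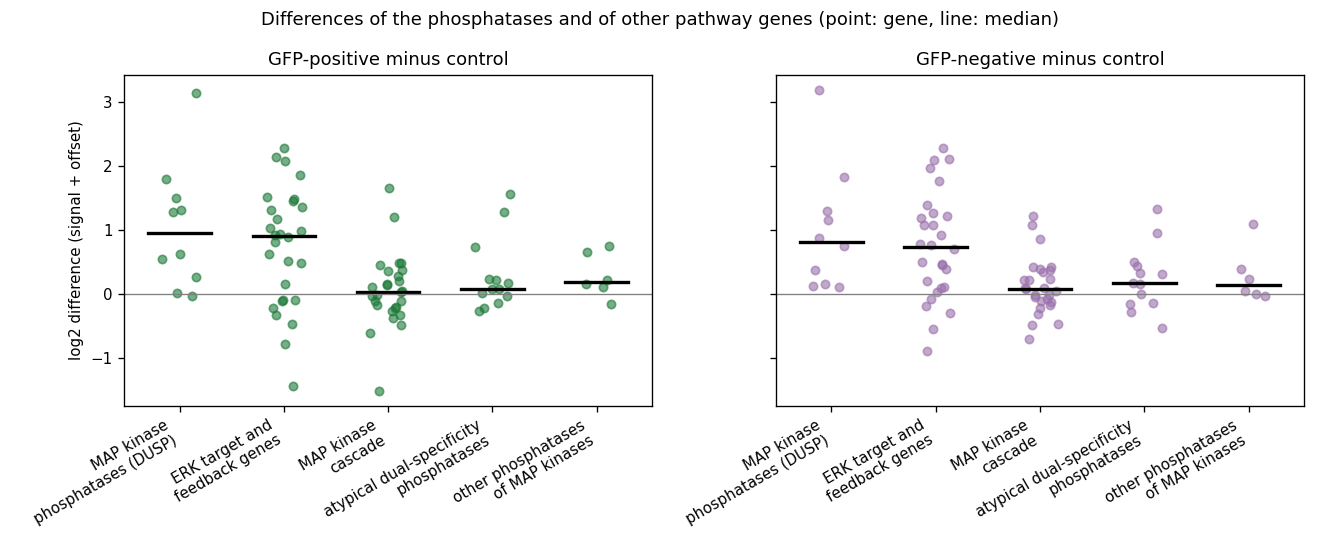
Log2 differences from control in GFP-positive (left) and GFP-negative cells (right) for the 10 phosphatase genes and 4 lists of other pathway genes. Points are genes at their brightest probe set and lines medians. The medians of the phosphatases (0.96 and 0.81) and of the ERK target and feedback genes (0.91 and 0.73) lie above those of the other lists.

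Other genes resembled the members over the 6 arrays once each gene was centred within its replicate number. By Pearson's r, with no test, the nearest to Dusp6 were Ccdc66, Phlda1 and Anxa3, the nearest to Dusp4 were Cnih4, Uchl1 and Rpa1, the nearest to Dusp5 were Brs3, Msn and Dcdc2a, and the nearest to Dusp9 were Appl1, Stip1 and Tmem267. Such likeness is common with 6 arrays of 3 groups: an r over 0.95 with Dusp6 was reached by 477 of 13213 other genes, with Dusp10 by 526 and with Dusp2 by 185. It also ignores the size of a difference. Ccdc66 differed from control by 0.15 in GFP-positive and 0.14 in GFP-negative cells, Appl1 by 0.16 and 0.09, and Phlda1 by 2.28 in each.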

How the data were processed

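The deposited values are signal intensities on a linear scale, 1 per probe set and array, and the submitters' processing notes name MAS5 as the tool. Its version and options are not stated. The table held 45101 probe sets, of which 64 controls were left out. Scaling set the 2% trimmed mean of each array to 500. Before taking log2, 30.6 was added, which is the median of the arrays' 25th percentiles, and 27022 probe sets with a mean signal at or above the 40th percentile (67.7) were kept. Symbols came from a platform annotation: 34945 probe sets had 1 symbol, 932 several and 9160 none. Comparisons used limma 3.58.1 in R 4.3.3 (all 6 arrays, mean-variance trend, 3 residual degrees of freedom, two-sided, p-values adjusted by Benjamini-Hochberg across the 27022 probe sets). With no statement on separate cultures, p-values reflect only the spread between these samples, which may be technical.

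Replicate numbers were checked for pairing: deviations from the group means of same-numbered arrays correlated at 0.51 to 0.56 between the groups, over probe sets, so the number was also fitted as a block, although the labels do not say what it marks. Fits were tested on simulated data with equal noise for all probe sets and no effect of the replicate number. Unlike the real arrays in this, they check the code only. The members and gene lists were chosen with earlier results of these data known. Genes of the lists named in the text are up to 4 of smallest p in GFP-positive against control cells, and genes like a member the 3 of highest r. Spry1, Jund, Spry2, Spred2 and Egr3 are named besides, as the ERK target and feedback genes that were lower than control without overlap. Alternatives were the block, no trend, median centring, quantile normalization, other filters and offsets, only the groups compared, the mean of a gene's probe sets and leaving out each array. Leaving out both rescaled arrays, and the block without a trend, were chosen after seeing the data.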

Additional observations from a re-analysis of the deposited data

How the results depend on the processing

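Across 18 alternatives per gene and comparison, the differences of Dusp1, Dusp2, Dusp4, Dusp5, Dusp6, Dusp9 and Dusp10 from control kept their sign in both treated groups. In all, 9 of 180 values turned sign in GFP-positive and 7 of 180 in GFP-negative cells, on Dusp7, Dusp8 and Dusp16, as did 18 of 180 between the sorted fractions, where only Dusp7 and Dusp9 kept their sign. The call of single members rests on the replicate block: it moved the count of their probe sets called against control to 8 in GFP-positive and 5 in GFP-negative cells, where 0 were called without it, and under every other alternative 0 were called in all 3 comparisons. The count over all probe sets was 1679 and 966 with the replicate block, 33 and 8 without it, 0 and 0 without a trend, 8 and 0 with the block and no trend, and 62 and 49 without both rescaled arrays. In GFP-negative against control cells it was 16 with median centring, 3 with the offset divided by 4, 3 with the stricter filter and 3 with only the groups compared. Leaving out 1 array gave 0 (GFP-positive replicate 2) to 35 (GFP-negative replicate 1) calls in GFP-positive cells, and the count was 2 or 13 when the array left out was control replicate 1 or 2 and 8 when it was GFP-positive replicate 1. In GFP-negative cells it gave 0 (GFP-negative replicate 1) to 6 (control replicate 2), and the count was 1 when the array left out was GFP-negative replicate 2, 2 for control replicate 1, and 5 or 3 for GFP-positive replicate 1 or 2. GFP-positive against GFP-negative gave 0 in every setting. The cause of these shifts was not tested. Dim signals limit Dusp9, the second probe set of Dusp10 and control replicate 1 of Dusp5, which lay near or under the offset or the filter level.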
